A study of Homo sapiens with 3 samples.

Results

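CXCR4, its chemokine ligand CXCL12, the second CXCL12 receptor ACKR3 (formerly CXCR7) and the monocyte chemokine CCL2 were examined in Rh-30 cells. Every probe set that the platform annotation pairs with these 4 genes was taken, which gave 9 of the 54675 probe sets on the array: 3 for CXCR4, 2 for CXCL12, 3 for ACKR3 and 1 for CCL2. Rh-30 is an established line of alveolar rhabdomyosarcoma (ARMS), a childhood muscle-like tumour, and bears the fusion gene PAX3-FOXO1. Rh-30 cells were transfected with control siRNA (siCont), with siRNA against PAX3-FOXO1 (siPF) or with siRNA against B7-H3 (siB7-H3, the gene CD276), each at 5 nM, and total RNA was collected after 24 h. RNA of each condition was hybridized to 1 Affymetrix U133 Plus 2.0 human expression array, 3 arrays in all. Because no condition had a second array, conditions could not be tested against each other, and every difference below describes a pair of arrays. All 3 conditions share the same parent line, the same transfection reagent and a single siRNA per target, so an effect of the siRNA other than on its target cannot be told apart from that of the knockdown.

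Chemokines are small secreted proteins that bind G protein-coupled receptors and guide migrating cells along a gradient. CXCL12 made by stroma binds CXCR4, which signals through Gi proteins toward PI3-kinase, ERK, focal adhesion kinase and Rac, and CXCR4 is known as a migration and homing receptor of leukocytes, muscle progenitors and rhabdomyosarcoma cells. ACKR3 binds the same ligand, couples mainly to arrestins and removes CXCL12 from the surroundings. CCL2 recruits monocytes through the receptor CCR2, and its transcription responds to NF-kB.

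Intensities are on a linear scale, as deposited, and 3 values or pairs of differences without a label stand in the order siCont, siPF, siB7-H3. A log2 difference of 1 stands for a 2-fold difference. Genes were called bright in a comparison, or said to pass the level rule, when the higher of the 2 arrays reached that array's 60th percentile (132 with siCont, 137 with siPF and 134 with siB7-H3). Probe sets differ in how strongly they bind, so brightness served to filter and choose genes and does not rank their transcript amounts. The array scaling was common to all arrays, with a trimmed mean, leaving out 2% of probe sets at either end, of 499.9 on each. The targeted transcripts were lower on the arrays named for them: FOXO1, the 3' part of the fusion, had an intensity of 678 with siCont, 249 with siPF and 650.0 with siB7-H3, and CD276 had 1486, 1381 and 362. FOXO1 probes read the wild-type transcript as well as the fusion. PAX3, the 5' part, had 381, 329 and 398 at the probe set used for the gene, a log2 difference of -0.21 in siPF. Of its 4 probe sets 2 were over the level on all arrays, and the second of these had 233, 194 and 154, or -0.27 in siPF. Whether the PAX3 probe sets read the fusion was not examined. Markers of the labelled cell type were present, with 11 of 12 measured muscle and rhabdomyosarcoma markers bright on at least 1 array, among them MYOD1, DES, CHRNA1 and FGFR4, whereas TFAP2B was under the level on all 3. Of 8 measured leukocyte markers, 7 were under the level on all arrays, and FCER1G, with 136, 113 and 116, was over it with siCont alone. The summed intensity of the 8 was 462 with siCont, 415 with siPF and 444 with siB7-H3, and PTPRC, the pan-leukocyte gene CD45, had 72.3, 32.5 and 20.1. Of 5 endothelial markers 4 were under the level on all arrays, and PECAM1 was bright, with 699, 621 and 910. Of 5 epithelial markers 4 were under it as well, and CLDN4 was bright, with 354, 510 and 328. MYOG, a gene of muscle differentiation, moved with the siRNAs, with 605, 3386 and 1269, and its part in the results below was not tested.

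The start regions of the receptor gene that was bright here and of its ligand gene, which was dim, are shown because they lie just before the points where these transcripts begin. Both are the 250 bases before a RefSeq start on GRCh38.p14, minus strand, written 5' to 3', at chr2:136118150-136118399 for CXCR4 and chr10:44385098-44385347 for CXCL12. Capitals mark matches on either strand to the core GCATGC of the NRF1 motif, the GC box GGGCGG, the TATA box TATAAA, the HIF core ACGTG, the PAX paired-domain core GTCACG and the homeodomain core TAAT.
CXCR4: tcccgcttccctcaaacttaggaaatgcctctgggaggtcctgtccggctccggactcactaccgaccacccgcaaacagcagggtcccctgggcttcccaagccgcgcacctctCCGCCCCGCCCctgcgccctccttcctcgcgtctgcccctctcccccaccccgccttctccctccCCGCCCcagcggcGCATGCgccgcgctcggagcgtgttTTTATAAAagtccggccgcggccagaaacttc
CXCL12: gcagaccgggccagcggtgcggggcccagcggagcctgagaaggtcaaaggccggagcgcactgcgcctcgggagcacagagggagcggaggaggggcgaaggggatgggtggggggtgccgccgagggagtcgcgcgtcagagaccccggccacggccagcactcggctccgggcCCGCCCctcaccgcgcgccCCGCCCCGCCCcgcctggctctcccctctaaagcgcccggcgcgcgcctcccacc
The CXCR4 window held 1 NRF1 core, 3 GC boxes, of which 2 overlap, and a TATA box read on both strands. The NRF1 core occurs in 6.21% of all 35116 such windows, a TATA box in 10.7% and a GC box in 42.6%. The CXCL12 window held 3 GC boxes and none of the other motifs. GC content was 68% for CXCR4 and 78% for CXCL12, against a median of 58% over all windows. The PAX paired-domain core, in 7.93% of all windows, the HIF core, in 18.5%, and the homeodomain core, in 47.4%, had no match in either window, which says only that these letters are not in these 250 bases. RefSeq lists 2 further CXCR4 starts, and 1 of these windows holds 2 homeodomain cores and 1 GC box while the other holds none of the 6 motifs. No window was given for ACKR3 or CCL2.

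CXCR4 was lower with either siRNA and lowest with siPF, and this order was the same at all 3 probe sets. At 217028_at, the brightest of the 3 over the arrays and the one used for the gene, the intensity was 947 with siCont, 436 with siPF and 732 with siB7-H3. The siPF value was 0.461 of that in siCont and the siB7-H3 value 0.773 of it, which gave log2 differences of -1.12 and -0.37. In RNA of whole cultures, fewer cells that express a gene and less of its RNA per cell cannot be told apart.
At 209201_x_at the intensities were 653 with siCont, 427 with siPF and 542 with siB7-H3, or log2 differences of -0.61 and -0.27. At 211919_s_at they were 759.6, 512 and 682, or -0.57 and -0.15. The probe sets therefore gave the same direction but not the same size: 1 of 3 was past 2-fold lower in siPF, where 1.31% of all probe sets that passed the level rule were, and none of 3 was in siB7-H3, where 1.08% were. The suffixes _x_at and _s_at mark probe sets that can bind more than 1 transcript, and the probe set past 2-fold is not of that kind.
Over the 3 probe sets the mean log2 difference was -0.77 in siPF and -0.26 in siB7-H3. Set directly against siB7-H3, without the siCont array, siPF was lower at all 3 probe sets, with log2 differences of -0.75, -0.34 and -0.41, none past 2-fold. In that comparison 0.952% of probe sets and 0.928% of genes that passed the rule were at least 2-fold lower.
The background gives a scale for these values. Of 10500 genes passing the level rule in the siPF comparison, 118 (1.12%) were at least 2-fold lower than siCont, and 80 genes, CXCR4 included, were as low as CXCR4 or lower. In siB7-H3 87 of 10481 genes (0.83%) were at least 2-fold lower, and 1008 genes, or 9.62%, had a difference as low as that of CXCR4. The SD of the log2 difference over the 2038 genes within 0.5 log2 of the mean level of CXCR4 was 0.37 in siPF and 0.33 in siB7-H3. The value at 217028_at was outside this SD in siPF and close to it in siB7-H3. These SDs are over genes on a pair of arrays and do not stand in for replicates.
The disagreement between the CXCR4 probe sets was above the median of genes with as many probe sets in siPF and below it in siB7-H3. Of 1268 genes with exactly 3 probe sets over the level on every array, the median range among the 3 log2 differences was 0.35 in either knockdown, and in siPF 22.8% had a range at least as wide as the 0.55 of CXCR4. In siB7-H3 the CXCR4 range was 0.22, and 75.0% of these genes had a range at least that wide.

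**Figure D1:**
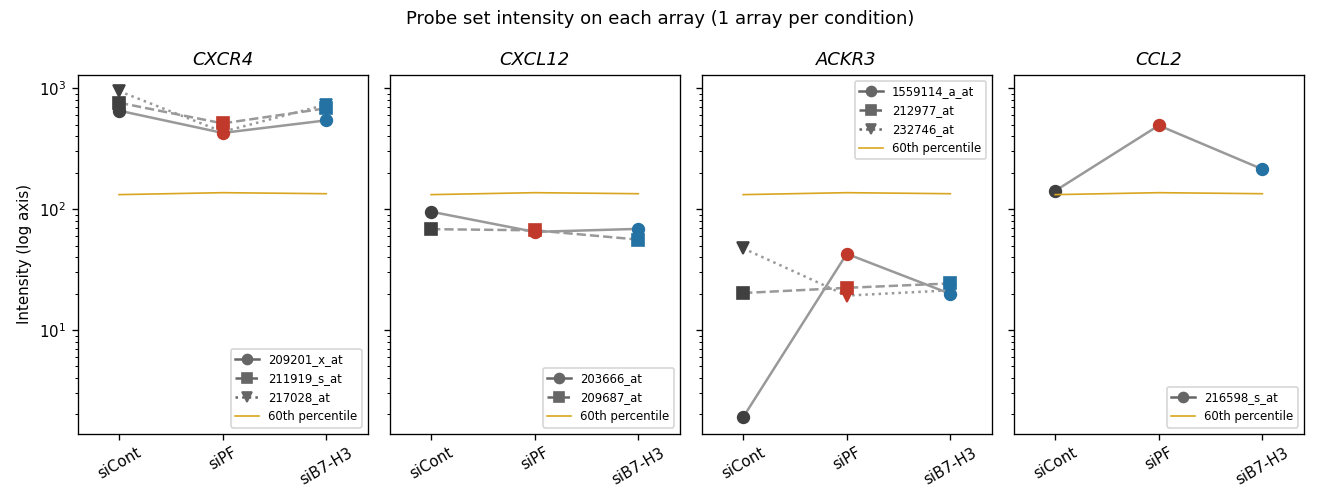
Intensity (log axis) of every probe set of CXCR4, CXCL12, ACKR3 and CCL2 on the siCont, siPF and siB7-H3 arrays, 1 point per probe set and array, with lines joining the points of a probe set and the 60th percentile of each array in gold. All CXCR4 probe sets are over the gold line and lowest in siPF, CCL2 is highest in siPF, and the probe sets of CXCL12 and ACKR3 are under the line on every array.

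CCL2 went the other way from CXCR4. Its single probe set, 216598_s_at, had an intensity of 142 with siCont, 493 with siPF and 214 with siB7-H3. The siPF value was 3.47 times and the siB7-H3 value 1.51 times that of siCont, for log2 differences of 1.80 and 0.59. In siCont the gene lay just over the level rule, at percentile 60.9 of the probe sets of that array, and in siPF at percentile 75.5.
Of the same 10500 genes, 145 (1.38%) were at least 2-fold higher, and 22, CCL2 included, were as high as CCL2 or higher. In siB7-H3 83 genes (0.792%) were at least 2-fold higher, and 432 of 10481 genes, or 4.12%, were as high as CCL2. Against siB7-H3 directly, siPF was higher by a log2 difference of 1.20, past 2-fold, where 94 of 10451 genes (0.899%) were at least 2-fold higher. Counted over probe sets that passed the rule, 1.51% were at least 2-fold higher in siPF, 1.03% in siB7-H3 and 1.01% in siPF against siB7-H3. The SD over the 1351 genes within 0.5 log2 of the mean level of CCL2 was 0.46 in siPF and 0.38 in siB7-H3. No other CCL2 probe set was paired with the gene, so the value had no check from a second set of probes, and the suffix marks a probe set that can bind several transcripts. Fibroblasts are a known source of CCL2, and of 5 fibroblast markers COL1A1 and THY1 were bright while DCN, LUM and PDGFRA were under the level. Their summed intensity was 2192 with siCont, 2477 with siPF and 2013 with siB7-H3, and came mostly from COL1A1, with 1249, 1286 and 1088, and THY1, with 791, 1045 and 839. The dim markers differed in direction, with 127, 101 and 36.8 for DCN, 10.6, 25.4 and 25.7 for LUM, and 15.0, 18.9 and 23.4 for PDGFRA. The part of these markers in the CCL2 values was not tested.

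CXCL12 was dim on all 3 arrays. Probe set 203666_at had 95.2 with siCont, 64.8 with siPF and 68.7 with siB7-H3, and 209687_at had 68.3, 66.8 and 56.0. Both were lower than siCont on both knockdown arrays, with log2 differences of -0.56 and -0.03 in siPF and -0.47 and -0.29 in siB7-H3, and none was past 2-fold. Which knockdown array was lower differed between the probe sets. At these intensities, between percentiles 45.7 and 55.1 of each array, a difference of this size was not resolved, and the values do not show whether the cells make CXCL12 themselves.

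The ACKR3 probe sets contradicted each other. At 1559114_a_at the intensities were 1.90 with siCont, 42.7 with siPF and 19.9 with siB7-H3, log2 differences of 4.49 and 3.39. At 232746_at they were 47.4, 19.3 and 21.3, log2 differences of -1.30 and -1.15. At 212977_at they were 20.2, 22.3 and 24.3, log2 differences of 0.14 and 0.26. One probe set was thus past 2-fold higher in both knockdowns, another past 2-fold lower in both, and the remaining 1 was within 2-fold.
All of these values lay under the level on every array. Among the 31422 probe sets that were under it on all 3 arrays, 5963 (19%) were at least 2-fold lower in siPF and 6207 (19.8%) at least 2-fold higher, and in siB7-H3 6144 (19.6%) and 5810 (18.5%). Between the knockdown arrays the shares were 18.6% lower and 20.5% higher, and 1559114_a_at was 1 of the latter, with 1.10. Differences past 2-fold were thus common at this brightness, and no direction is given for ACKR3.

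**Figure D2:**
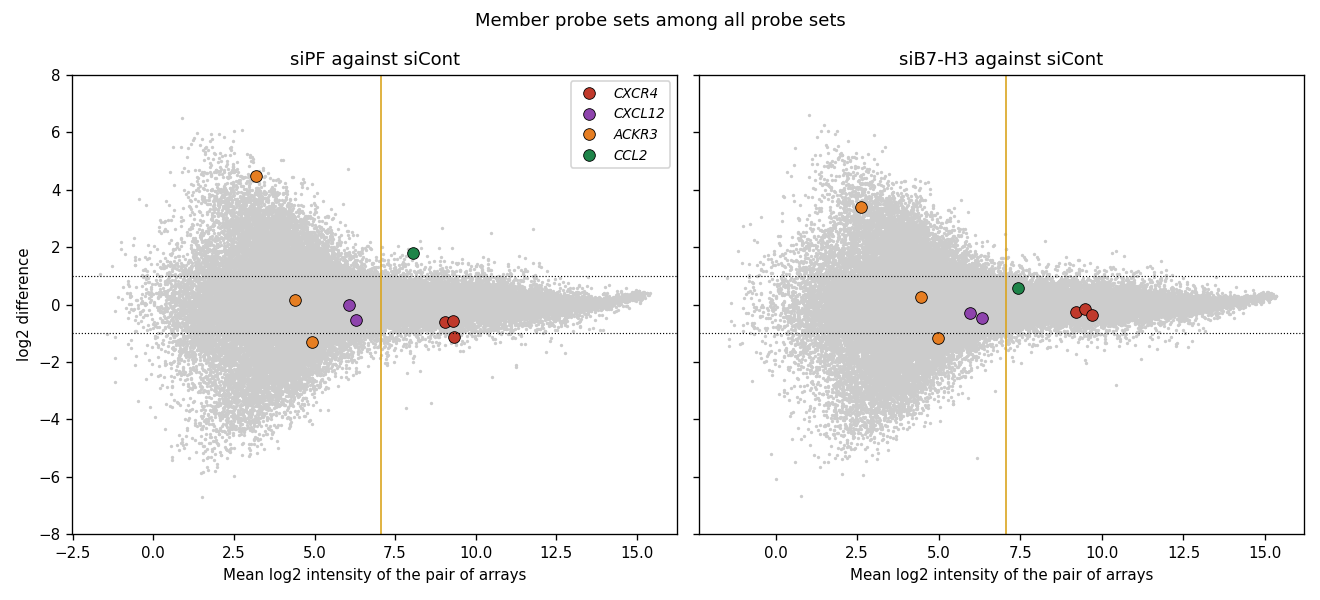
Log2 difference from siCont (vertical axis) against the mean log2 intensity of the pair of arrays (horizontal axis) for siPF and siB7-H3, with 1 grey point per probe set and the 9 member probe sets in colour. Dotted lines mark 2-fold and the gold line the 60th percentile. The ACKR3 points lie in the wide spread of dim probe sets, and in siPF the CCL2 point (1.80) and 1 CXCR4 point (-1.12) lie beyond 2-fold to the right of the gold line.

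CXCR4 was the 1 chemokine receptor gene that was bright. Of 21 measured chemokine receptor genes, the other 20 were under the level on all arrays. Leaving out ACKR3 as well, the remaining 19 peaked at intensities from 10.00 to 75.8. CCR2, the receptor of CCL2, had 39.1 with siCont, 33.4 with siPF and 29.2 with siB7-H3. Over the 21 genes the median log2 difference was -0.23 in siPF and 0.13 in siB7-H3, against 0.017 and 0.0045 over all 19775 genes, and it was carried by dim values.
Of 40 measured chemokine ligands, 8 passed the level rule in each comparison: MIF, CCL20, CXCL3, CXCL8, CX3CL1, CCL26, CXCL2 and CCL2. In siPF, 4 of the 8 were below siCont and 4 above, and CCL2 was the 1 past 2-fold. Over all genes that passed, 47.5% were below siCont and 1.38% at least 2-fold higher. In siB7-H3, 3 were below and 5 above, and none was past 2-fold. MIF, a cytokine that also binds CXCR4, had 6315 with siCont, 7215 with siPF and 6465 with siB7-H3, so this alternative ligand was bright and within a log2 difference of 0.19.
The neutrophil chemokine CXCL8 had 346, 225 and 409, log2 differences of -0.62 and 0.24, and its dimmer second probe set had -0.27 and 0.09. CXCL3, which also attracts neutrophils, had 578, 520.2 and 512, and CCL20, the ligand of CCR6, had 817, 614 and 713. The bright chemokines other than CCL2 therefore showed no common direction with siPF.

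**Figure D3:**
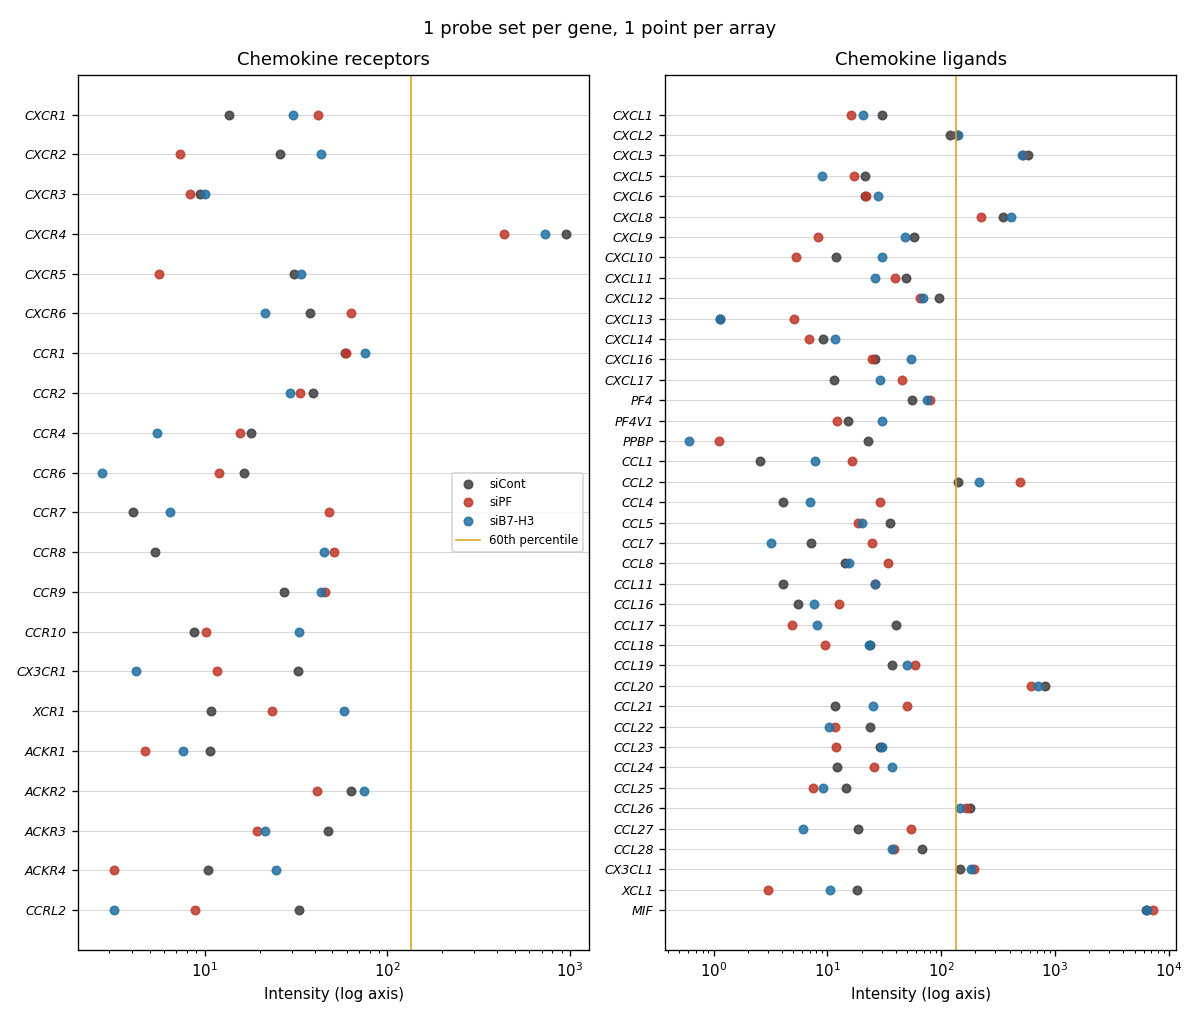
Intensity (log axis) of each measured chemokine receptor (left) and ligand (right), with 1 probe set per gene and 1 point per array, and the mean 60th percentile of the arrays in gold. CXCR4 is the only receptor to the right of the line, and among the ligands to the right of it CCL2 has the widest spread. Positions of different genes are not comparable as transcript amounts.

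ARRB1 was the gene of the receptor machinery that stood past 2-fold lower with siPF. It encodes beta-arrestin 1, which binds phosphorylated CXCR4 and ACKR3. All 7 of its probe sets were over the level on all arrays. All 7 were highest in siCont and lowest in siPF, and 4 of 7 were past 2-fold lower in siPF. The 7 read the same gene and are not independent, and how common this order is among all genes was not counted. The brightest had an intensity of 3351 with siCont, 1477 with siPF and 3264 with siB7-H3. Its siB7-H3 value was thus close to siCont, at a log2 difference of -0.04. The log2 differences over the 7 ran from -1.43 to -0.81 with siPF and from -0.55 to -0.04 in siB7-H3. Against siB7-H3 directly, siPF was lower at all 7, from -1.14 to -0.59, and 2 of 7 were past 2-fold. Of all probe sets that passed the rule in that comparison, 0.952% were at least 2-fold lower.
Of the 26 measured genes of receptor desensitization and trafficking, 23 passed the level rule, and ARRB1 was the 1 past 2-fold lower in siPF, with none higher, where 1.12% of all genes and 1.31% of all probe sets that passed were at least 2-fold lower. In siB7-H3 none of the 23 was past 2-fold, where 0.83% of all genes that passed were at least 2-fold lower and 0.792% higher. The kinases that phosphorylate the receptors, GRK2 with 467, 345 and 353, GRK3 with 717, 639 and 534, and GRK6 with 452, 309 and 337, were all below siCont by less than 2-fold, and GRK5 had 606, 611 and 877. ITCH, the ubiquitin ligase that sends CXCR4 to lysosomes, had 1378, 1590.5 and 1495. USP14, RAB11A, RAB5A, TSG101, RAB7A and STAM, which act in ubiquitin removal and endosomal sorting, had log2 differences between -0.032 and 0.21 in siPF. The median log2 difference of the 23 was -0.032 in siPF and -0.038 in siB7-H3, against 0.018 and 0.017 over all genes that passed the rule.

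Of 40 measured genes that carry the CXCR4 signal, 34 passed the level rule, and siPF had 14 of them below and 20 above siCont. For siB7-H3 these counts were 12 and 22. The shares below siCont were 41.2% and 35.3%, against 47.5% and 47.2% over all genes that passed. GNB1, a G protein beta subunit, was the 1 past 2-fold, and it was higher with both siRNAs, where 1.38% and 0.792% of all genes that passed were. Its brightest probe set had 2643 with siCont, 6558 with siPF and 6128 with siB7-H3. A second had 2139, 5860 and 6088, and the third 3254, 4303 and 4264, with log2 differences of 0.40 and 0.39. Both knockdown comparisons of GNB1 use the same siCont array, and the knockdown arrays differed from each other by log2 differences from -0.06 to 0.10.
PTK2, the focal adhesion kinase, had 2977, 1542 and 2013, log2 differences of -0.95 and -0.56. Its 2 other bright probe sets had -0.49 and -0.56 in siPF and -0.67 and 0.04 in siB7-H3. Of the Gi subunits that take the signal from the receptor, GNAI2 had 1110.5, 1017 and 801, log2 differences of -0.13 and -0.47, and GNAI3 had 11025, 12632 and 12778, log2 differences of 0.20 and 0.21. RHOA, GNG5, RAC1 and GNG12 had log2 differences between -0.13 and 0.05 in siPF, and GNA13, with 6341, 9452 and 7540, had 0.58.

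Of 26 measured genes that process or hold CXCL12 outside the cell, 20 passed the level rule, 9 below and 11 above siCont in each knockdown. The 45% below siCont was near the 47.5% and 47.2% over all genes that passed. None was past 2-fold at the probe set that represents the gene, where 1.12% of all genes that passed were lower and 1.38% higher in siPF. For siB7-H3 these shares were 0.83% and 0.792%. GPC1, a heparan sulfate proteoglycan, had 1245, 2434 and 1681, log2 differences of 0.97 and 0.43, and its second probe set, over the level on all arrays as well, had 140, 355 and 205, or 1.35 and 0.55, past 2-fold in siPF. SDC3, another such proteoglycan, had 2716, 1652 and 2200.5. HMGB1, which forms a complex with CXCL12, had 22366, 28951 and 29503. The other brightest genes of the list, CD44, HS2ST1, SDC4, EXT2 and SDC2, had log2 differences between -0.31 and 0.27 in siPF. MMP2 and MMP14, proteases that can cut the chemokine, had 383, 532 and 488, and 1015, 1037 and 1060. DPP4, which also trims it, was under the level on all arrays.

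**Figure D4:**
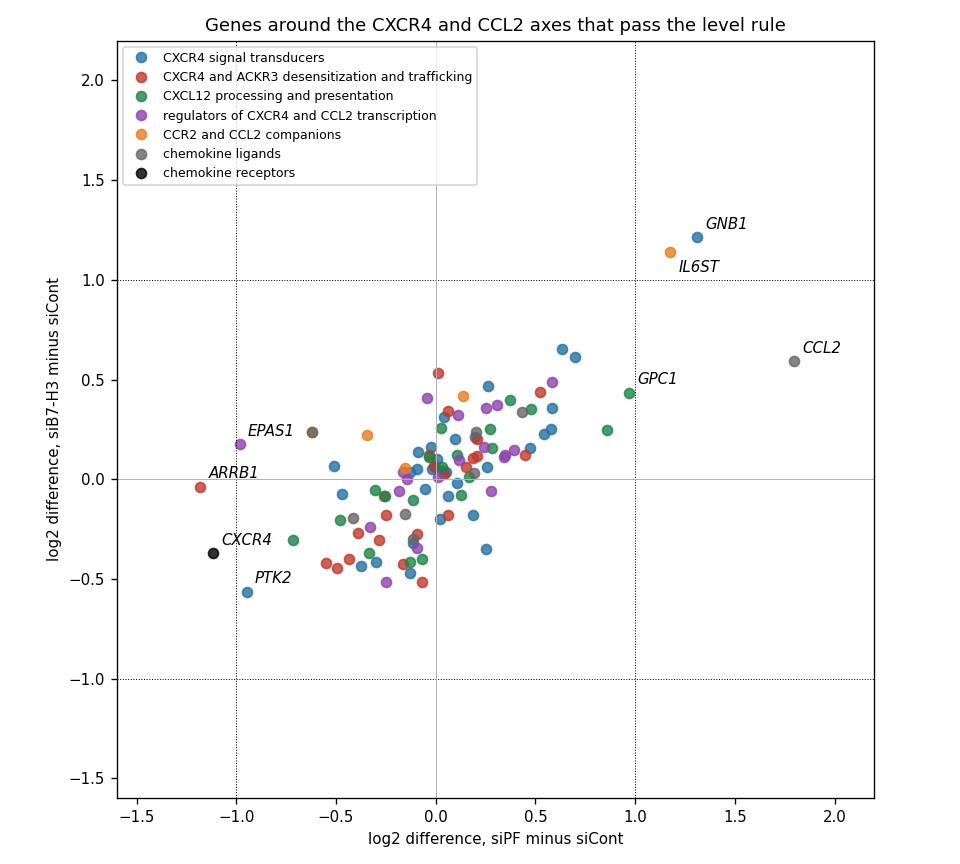
Log2 difference in siB7-H3 (vertical axis) against that in siPF (horizontal axis), both from the same siCont array, for genes of the chemokine, receptor signalling and regulator lists that pass the level rule in both comparisons, 1 point per gene, coloured by list. Dotted lines mark 2-fold. CXCR4 (-1.12, -0.37) and ARRB1 (-1.18, -0.04) lie beyond 2-fold on the left, CCL2 (1.80, 0.59) on the right, and GNB1 and IL6ST in the upper right corner.

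All 19 measured genes known as regulators of CXCR4 or CCL2 transcription passed the level rule, and none was past 2-fold from siCont on either knockdown array. Below siCont were 8 with siPF and 5 with siB7-H3, and the other 11 and 14 were above it. The shares below were 42.1% and 26.3%, against 47.5% and 47.2% over all genes that passed, of which 1.12% and 0.83% were at least 2-fold lower. NRF1, whose motif core stands in the CXCR4 window above, had 554, 502 and 556. SP1, which binds GC boxes, had 1455, 1847 and 1569, YY1 8982, 9044 and 9052, and HIF1A, the hypoxia factor, 15559, 18395 and 17376. JUN, a subunit of AP-1, had 18121, 16147 and 18559, and the glucocorticoid receptor NR3C1 2960.4, 3202 and 3703.
EPAS1, the related factor HIF-2 alpha, had 563 with siCont, 284 with siPF and 635 with siB7-H3, log2 differences of -0.98 and 0.17. Its 2 other probe sets were dim and went opposite ways, with -2.14 and 4.15 in siPF. At its bright probe set siPF was past 2-fold below siB7-H3, at -1.16, the 1 regulator past 2-fold between the knockdown arrays. For this pair of arrays 10451 genes passed the level rule. Of these, 97 (0.928%) lay past 2-fold below siB7-H3 with siPF, and 94 (0.899%) past 2-fold above it.
The NF-kB genes that bear on CCL2 were within 2-fold. The arrays read RNA, so the activity of these and the other regulator proteins was not measured. NFKB2 had log2 differences of 0.39 and 0.15, RELB 0.35 and 0.12, and IKBKB -0.18 and -0.06. NFKB1 had 997, 1080.0 and 1065, RELA 1046, 831 and 886, and the feedback inhibitor NFKBIA 1945, 2913 and 2724, log2 differences of 0.58 and 0.49. TNFAIP3, another feedback gene of the pathway, had 2683, 2110 and 3132, below siCont in siPF and above it in siB7-H3.

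Of 14 measured companions of CCL2, 5 passed the level rule. With siPF 3 of them were below and 2 above siCont, and with siB7-H3 all 5 were above. Over all genes that passed, 47.5% and 47.2% were below siCont, and 1.38% and 0.792% were at least 2-fold higher. IL6ST, the shared receptor chain of the interleukin-6 family, was the 1 past 2-fold, at 2067 with siCont, 4673 with siPF and 4554 with siB7-H3. Its 4 bright probe sets had log2 differences from 0.74 to 1.18 with siPF and from 0.70 to 1.14 in siB7-H3, while the knockdown arrays lay within 0.14 of each other. CSF1, the macrophage growth factor, had 447, 491 and 597, and TNFRSF1A, the TNF receptor, 1715, 1543 and 1786. CCL7 and CCL8, which bind CCR2 as well, were dim, with 7.14, 24.9 and 3.21 for CCL7 and 14.2, 33.9 and 15.5 for CCL8, so a shared difference of the CCR2 ligands could not be resolved on these arrays. IL6, IL1B and TNF, inducers of CCL2 or of its signalling partners, were also under the level on all arrays.

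Genes with a pattern like that of CXCR4 and CCL2 were ranked by distance in the pair of log2 differences, over 3 arrays and 10373 genes that passed the level rule in both comparisons. The 5 nearest to CXCR4 were PREX2, MRGPRG-AS1, DGKQ, SPART and BCHE, at distances from 0.041 to 0.086. BCHE, butyrylcholinesterase, had 3960 with siCont, 1861 with siPF and 2894 with siB7-H3, and SPART 3881, 1896 and 3015, whereas PREX2, MRGPRG-AS1 and DGKQ were dim with siPF, at 71.7, 73.4 and 81.3. In all 28 genes lay within 0.2 of CXCR4. The ranking used 217028_at for CXCR4, and both log2 differences share the single siCont array. In siPF alone the 3 CXCR4 probe sets ranged over 0.55, wider than 0.2, so the genes near CXCR4 depend on the probe set used. Around CCL2 there was 1 gene within 0.2, CRIP2, a LIM domain protein, with 89.8, 300.3 and 138. CRIP2, P4HA2 and SAMD11 were under the level with siCont, at 89.8, 129 and 83.0, and passed through the arrays where they were higher. P4HA2, SAMD11, MFAP4 and SYNPO2L followed at distances from 0.31 to 0.35, and of these SYNPO2L, a protein of the muscle Z-disc, had 459, 1252 and 706. CXCL12 and ACKR3 were not ranked, as neither passed the level rule.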

How the data were processed

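RNA of Rh-30 cells was measured on 3 arrays, 1 per condition. The deposited values are linear intensities, which the authors obtained in Expression Console 1.4.1 (Affymetrix). How probes were summarized is not given in the sources used here. An unrecorded background step can move dim values most, which bears on CXCL12 and ACKR3.
Values were put on the log2 scale without a floor or pseudocount. Of 54675 probe sets, 62 controls were left out, 41091 were named with 1 gene of the platform annotation (19775 genes, symbols updated through RefSeq), 1801 with several genes and 11721 with none. A gene was represented by its brightest probe set, by mean log2 over the arrays. No test was made.
The members and lists were chosen with earlier results of these data known, and CXCR4 is a gene the study itself followed up from these arrays. Named were all member probe sets, list genes past 2-fold or among the brightest 6 of a list, and the 5 genes nearest to each ranked member. Other genes, such as PTK2, EPAS1, GPC1, GRK2, NRF1 and CCR2, were named for their role after their values were seen. Alternatives were other probe set choices, 2 scalings, a floor, a pseudocount of 50 and other level rules. Python 3.11.15, numpy 2.4.6 and pandas 2.3.3 were used. The calculation was checked on simulated arrays, in which bright genes were given differences larger than those of CXCR4 and CCL2. The simulated spread was smaller than that between these arrays at the level of the 2 genes, so this checks the code only. Upstream windows came from RefSeq on GRCh38.p14.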

Additional observations from a re-analysis of the deposited data

How the results depend on the processing

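CXCR4 was lower in both knockdowns and in siPF against siB7-H3 under all 9 alternatives. CCL2 was higher under all 6 that gave a value, at 1.50 to 1.80 in siPF. Not all of these could change a value. CCL2 has 1 probe set, over the level on all arrays, so other probe set choices and the floor returned the main value. For CXCR4 the floor and leaving out _s_at and _x_at probe sets did so as well, and its other probe sets, given above, are among the 9. The 2-fold call of CXCR4 in siPF depended on the probe set. The log2 difference was -0.80 with the median over probe sets and -0.89 with the highest value. Both were taken on each array first, so they set 1 probe set in siCont against another in siPF. For ACKR3 below they can do so as well. The other CXCR4 probe sets had -0.61 at 209201_x_at and -0.57 at 211919_s_at, and the median of the 3 probe set differences was -0.61. CCL2 had no value without _s_at and _x_at probe sets.
For ACKR3, leaving out _s_at and _x_at probe sets could change nothing, as none of its probe sets has these suffixes. Both scalings kept the sign at the probe set used for the gene, but ACKR3 changed with the choices that follow. In siPF it was 4.49 at 1559114_a_at and 0.14 at 212977_at and with the median over probe sets. It was -0.15 there with the highest value on each array and -0.49 with a pseudocount of 50. In siB7-H3 ACKR3 had 3.39, 0.26, 0.075, -0.96 and -0.45 in the same order, and no direction is given for it. In siPF against siB7-H3 it was 1.10 at 1559114_a_at, 0.068 with the median and 0.81 with the highest value. CXCL12 in that comparison was 0.25 at 209687_at and 0.086 with the median. With the floor CXCL12 and ACKR3 were both 0.054 in siPF, 0.025 in siB7-H3 and 0.029 between them, which is the difference of the floors themselves.
With the level rule at the 50th percentile, the 70th percentile or none, 320, 59 or 1856 genes were at least 2-fold lower and 315, 94 or 1922 higher in siPF, 270, 48 or 1868 lower and 266, 47 or 1730 higher in siB7-H3, and 282, 49 or 1755 lower and 264, 53 or 1977 higher in siPF against siB7-H3. These rules change both the number of genes and the share of dim ones. The mean in place of the median gave -0.055 for chemokine receptors, -0.064 for chemokine ligands and -0.011 for companions of CCL2 in siB7-H3, and 0.018 for chemokine ligands in siPF, each opposite in sign to the median.
No paired analysis was possible because each condition had 1 array, and no array could be left out. The number of arrays limits the precision, and brightness over background limits CXCL12 and ACKR3.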
